A study of Mus musculus with 15 samples.

Results

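The genes described here are 8 regulators of red blood cell and blood stem cell development, Gata1, Gata2, Tal1, Lmo2, Klf1, Lyl1, Meis1 and Zfpm1, chosen by name and function, with no value in the rule, and found in the mm9 annotation among 22202 protein-coding genes. H3K4Me1, H3K27Ac and H3K27Me3, which mark poised, active and repressed regions respectively, had been mapped by chromatin immunoprecipitation and sequencing (ChIP-seq) at 0, 3, 12, 24 and 48 h post-induction (hpi) in C10 cells. C10 is a single line that goes back to HAFTL, a mouse pre-B cell line, and the cells of all 5 times carry C/EBPα fused to the estrogen receptor hormone-binding domain and marked with GFP. Adding 100 nM β-estradiol moves the fusion protein into the nucleus, and the cells, grown with IL-3 and CSF-1 at 10 nM, become macrophage-like, while control cells received the solvent, 0.1% ethanol, and whether the 0 hpi cells did is not given in the sources used here. The dose of β-estradiol is that of the labels, and the study's methods state a higher one. Each mark had a single library at each time, so nothing below could be set against the spread between replicates, and no test between times was run.

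Tal1 and Lyl1 are related basic helix-loop-helix proteins that bind E-box motifs together with E proteins, Lmo2 bridges them to GATA factors, and these proteins form a complex that drives the programs of blood stem cells and red blood cells. Gata2 acts in stem cells, progenitors and mast cells and hands over to Gata1 in red blood cells and megakaryocytes, Zfpm1 (FOG-1) is the cofactor that GATA factors recruit, Klf1 activates globin and other red cell genes through CACCC motifs, and Meis1 is a homeobox partner of Hox proteins in stem cells. Neither pre-B cells nor macrophages are known as users of the red cell program. The 8 genes were not all without active marks here. The start of Lyl1 had more H3K27Ac than 99.8% of all gene starts at 0 hpi and than 95.8% at 48 hpi.

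Values are tags (aligned 36 bp reads, 1 kept per position) in libraries of 11.04 to 17.85 M tags (H3K4Me1), 15.93 to 18.56 M (H3K27Ac) and 15.36 to 31.56 M (H3K27Me3), thinned at random to equal depth within each mark. A start is the 5′ end of the most upstream protein-coding transcript, and its level is the tags in the 3 kb around it (5 kb for H3K27Me3), so levels of different genes refer to equal lengths. The genome mean per window was 13.4 (H3K4Me1), 18.7 (H3K27Ac) and 31.4 tags (H3K27Me3), and a window was called enriched from 27, 34 and 51 tags, where the Poisson upper tail over that mean falls below 0.001. Changes are log2 ratios with 5 tags added to both counts, those of at least 2-fold are named higher or lower, and the 95% intervals given are exact intervals of the ratio without added tags, which cover counting error only. Scaling by background bins in place of depth would move the changes at 48 hpi by 0.55 for H3K4Me1, -0.07 for H3K27Ac and 0.15 for H3K27Me3, and scaling by bins enriched at all 5 times by 0.06, 0.41 and -0.17.

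The labelled cell types were checked by H3K27Ac at the starts of their marker genes. It was enriched at 0 hpi at 9 of 9 pre-B cell genes (Pax5, Ebf1 and others) and was lower at 48 hpi at all 9, with log2 changes of -2.38 to -1.24. It was higher at 9 of 9 macrophage genes (Csf1r, Cd14 and others), by 1.22 to 5.16, so both lists moved in the direction the labels give. The lists were chosen with earlier results of these data known, and the study shows Csf1r, Cd14 and others as its examples. The counts are therefore no independent check of the labels. Over all starts, 9.38% were lower and 5.26% higher.

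The H3K27Ac libraries of 0 and 3 hpi stood apart from the other 13 libraries. Over 60 kb of diversity segments within the heavy chain locus of the immunoglobulins (chr12:114670001-114730000) they had 569 and 463 tags before thinning, where the other 13 libraries had 8 tags together, at most 3 in any of them. Every H3K27Ac comparison of 0 hpi with a time later than 3 hpi therefore compares libraries that differ at this segment. So does every comparison of H3K27Ac with another mark at 0 or 3 hpi. Log2 changes of the members' H3K27Ac are given below also as 48 against 12 hpi, which uses neither the 0 nor the 3 hpi library. The labels name the same line for all 15 libraries, and whether the cells of these 2 were the same as those of the other 13 was not tested. For H3K27Ac, a change with time from 0 or 3 hpi to a later time than 3 hpi and a difference between the cells cannot be told apart. The step from 0 to 3 hpi lies between the 2 libraries that share this segment, and each is a single library. From 12 to 48 hpi, 5 of the 9 pre-B cell genes were lower and none higher, and 2 of the 9 macrophage genes (Cd14 and Itgam) were higher and none lower, beside 4.61% of all starts lower and 2.35% higher. Of 5 genes that every cell uses, Rpl13a was lower from 0 hpi (-1.66), and Tbp (-1.01) and Rpl13a (-1.21) were lower from 12 hpi.

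H3K27Ac at the 8 starts ran from none to among the highest in the genome. Lyl1, Zfpm1, Tal1 and Klf1 were enriched at all 5 times, against 46.5% of all starts at 0 hpi and 47.2% at 48 hpi, while the starts of Gata1, Gata2, Meis1 and the upstream start of Lmo2 were below the limit at all 5 times. From 0 to 48 hpi, 2 of the 8 starts were at least 2-fold higher (Tal1 and Lmo2) against 5.26% of all starts, and 2 were at least 2-fold lower (Lyl1 and Zfpm1) against 9.38%. From 12 to 48 hpi none of the 8 passed 2-fold, against 2.35% of all starts higher and 4.61% lower. In bulk cells a lower mark per cell and fewer cells with the mark cannot be told apart. The median log2 change of the 8 was -0.22, beside -0.15 over all starts, with 3 of the 8 (Gata1, Gata2 and Meis1) at no more than 4 tags at both times.

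**Figure D1:**
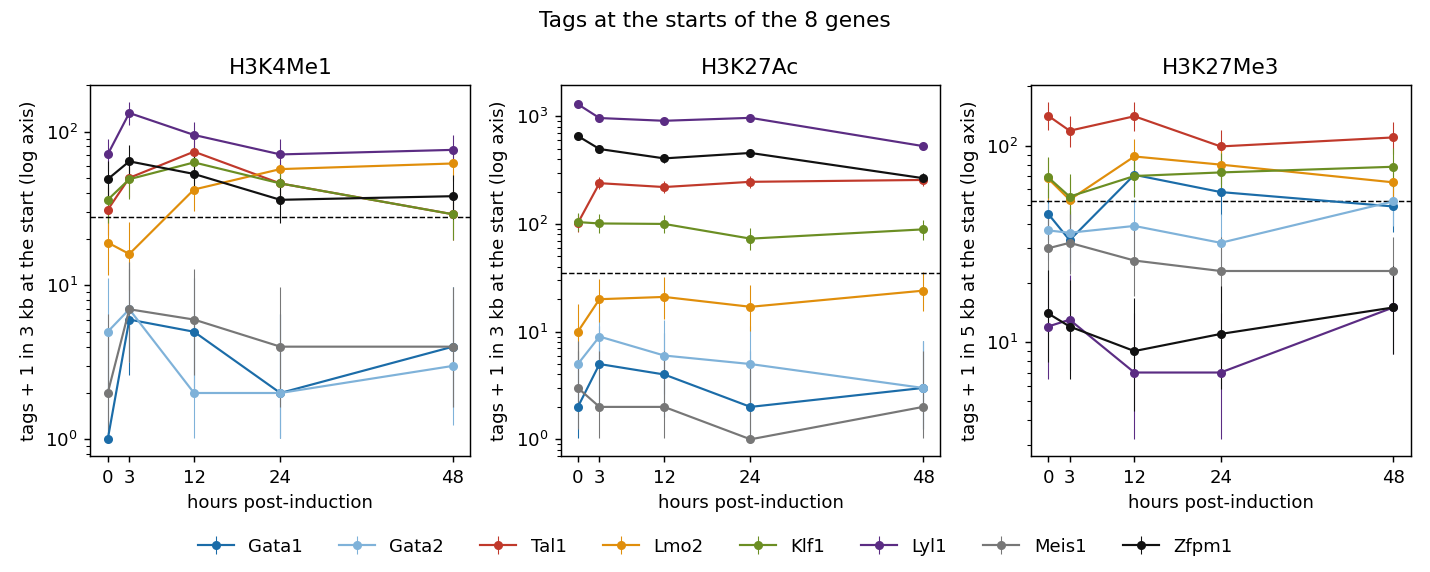
Tags at the starts of the 8 genes (vertical log axis, tags plus 1 in 3 kb, or 5 kb for H3K27Me3) by hours post-induction, with 1 library per point, exact 95% Poisson intervals as bars and the limit for enrichment dashed. In H3K27Ac, Lyl1, Zfpm1, Tal1 and Klf1 lie above the limit at all 5 times and the other 4 genes below it.

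H3K4Me1 at the starts was enriched at 4 of 8 genes at 0 hpi (Tal1, Klf1, Lyl1 and Zfpm1; 44.9% of all starts) and at 5 at 48 hpi with Lmo2 added (40.6%). The limit was passed by 48.2%, 47.2% and 42.9% of all starts at 3, 12 and 24 hpi. By 48 hpi, Lmo2 was higher (3.31% of all starts) and no member was lower (9.76%). H3K27Me3 was enriched at 3 starts at 0 hpi (Tal1, Lmo2 and Klf1; 21.3% of all starts) and at 4 at 48 hpi with Gata2 added (23.2%), and none of the 8 was at least 2-fold higher (0.806%) or lower (1.61%) at 48 hpi. At the earlier times few starts had moved. In H3K4Me1, Gata1 alone was called higher at 3 hpi (1.59% of all starts), Tal1 and Lmo2 at 12 hpi (3.01%) and Lmo2 at 24 hpi (3.05%). The Gata1 call rests on 0 and 5 tags, with an interval that includes no change. Scaled by bins enriched at all 5 times, the changes at 12 hpi were 0.90 at Tal1 and 0.74 at Lmo2, below 2-fold. H3K4Me1 was lower at none of the 8 at 3, 12 or 24 hpi, against 1.74%, 4.22% and 6.77% of all starts. H3K27Ac was higher at Tal1 alone at each of these times. Scaled by background bins, Tal1 was below 2-fold at 3 and 12 hpi (0.91 and 0.94). H3K27Ac was lower at none of the 8, against 1.89%, 3.18% and 8.71% of all starts, so the losses at Lyl1 and Zfpm1 passed 2-fold only at 48 hpi. H3K27Me3 was neither higher (0.437%, 0.473% and 0.338%) nor lower (0.685%, 1.01% and 3.09%) at any of the 8.

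H3K4Me1 and H3K27Me3 were enriched together at Tal1 and Klf1 at all 5 times, and at Lmo2 from 12 hpi on, when its H3K4Me1 reached the limit. Among all starts the share with both was 7.53%, 7.28%, 9.61%, 7.18% and 7.63% in the order of the times. Tal1 and Klf1 were enriched for H3K27Ac and H3K27Me3 together at all 5 times, as were 5.26%, 5.16%, 7.13%, 4.88% and 6.12% of all starts. The marks were counted over a population of cells, so they need not lie on the same allele. At 0 and 3 hpi the H3K27Ac libraries also differ from those of H3K27Me3 at the heavy chain segment described above. Whether the libraries of both marks came from the same cells was not tested. At these times, enrichment for both marks therefore need not be that of a single population.

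**Figure D2:**
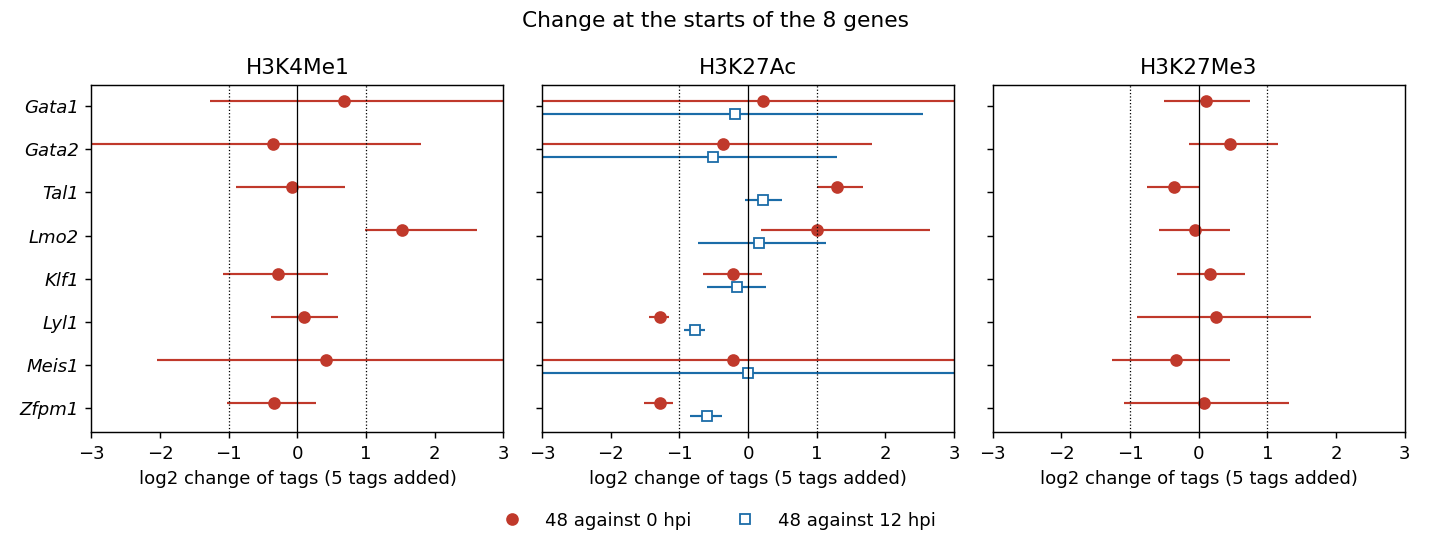
Log2 change of tags at the starts (horizontal axis, 5 tags added) from 0 to 48 hpi (filled) and, for H3K27Ac, from 12 to 48 hpi (open), with exact 95% intervals of the ratio cut off at the edge of the plot, and dotted lines at 2-fold. From 0 hpi, H3K27Ac at Tal1 and Lmo2 reaches the upper line and at Lyl1 and Zfpm1 passes the lower, and from 12 hpi no gene reaches a line.

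Tal1 (ENSMUSG00000028717.6, chr4:114729031-114744360, plus strand) was the member whose locus gained most H3K27Ac. At its start, H3K27Ac was 101, 238, 219, 245 and 255 tags in the order of the times, as in all such series below. The step lay between 0 and 3 hpi, and from 3 hpi on the levels stayed between 219 and 255. The log2 change from 0 to 48 hpi was 1.29 (95% interval 1.0 to 1.68), more than at 96.7% of all starts, and at 3, 12 and 24 hpi Tal1 was already at least 2-fold above 0 hpi, as were 4.27%, 4.25% and 4.67% of all starts. Scaled by background bins, the changes at 3 and 12 hpi were 0.91 and 0.94, below 2-fold, and that at 24 hpi was 1.80. From 12 to 48 hpi the change was 0.22 (-0.05 to 0.49), so the call rests on the 0 hpi library. The 3 hpi library, which stands apart with it, was at the level of the later times. H3K4Me1 at this start was 30, 49, 73, 45 and 28 tags. It was at least 2-fold above both ends at 12 hpi, a transient course that 1.1% of all starts had. Scaled by the bins enriched at all 5 times, the rise from 0 to 12 hpi was 0.90 and no longer 2-fold. H3K27Me3 was 141, 118, 140, 98 and 109 tags in 5 kb, the highest of the 8 genes at all 5 times. At 0 hpi that was above 99.7% of all starts, and the change by 48 hpi was -0.36 (-0.75 to 0.00).

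Around the Tal1 start the repressed and acetylated stretches overlapped, with more H3K27Me3 in the window before the gene than in the one after it. In windows of 3 kb, H3K27Me3 in the window just before the gene (centre at -1.5 kb) was 103, 79, 110, 81 and 85 tags, while H3K27Ac there was at most 24. In the window just after the 5′ end (1.5 kb), H3K27Ac was 97, 231, 220, 234 and 240 tags and H3K27Me3 49, 48, 47, 25 and 30. H3K27Me3 was called over 15 kb around the start at all 5 times and H3K27Ac over 2 kb.

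The 300 bases at the Tal1 start (chr4:114728781-114729080, plus strand, NCBIM37, which is mm9) are shown because both marks meet there. Capitals here and below mark GATAA (GATA factors), CAGNTG (an E-box), GGAAG (Ets), CACCC (KLF) and TTNNGNAA (C/EBP) on either strand, and adjoining matches run together. The same window of 250 bases before and 50 from the start holds them in 23.4%, 48.5%, 71.5%, 57.9% and 38.6% of all 22202 starts, in that order. The Tal1 start held 1 GATAA, 1 CAGNTG, 1 CACCC and 1 TTNNGNAA and no GGAAG.
Tal1 start: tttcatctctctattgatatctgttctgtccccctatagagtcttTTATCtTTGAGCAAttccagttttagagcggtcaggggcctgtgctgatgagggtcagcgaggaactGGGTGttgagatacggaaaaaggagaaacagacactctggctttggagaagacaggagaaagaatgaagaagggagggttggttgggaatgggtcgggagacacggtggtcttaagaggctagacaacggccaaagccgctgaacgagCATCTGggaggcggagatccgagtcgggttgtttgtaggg

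The largest H3K27Ac signal of the Tal1 locus at 48 hpi lay behind the gene. Tal1 is known to be controlled by enhancers downstream of it. The window centred 19.5 kb from the 5′ end (chr4:114747031-114750030, intergenic) had 122, 84, 293, 403 and 500 H3K27Ac tags. It was higher at each time after 3 hpi than at the time before and had a log2 change of 1.99 (1.75 to 2.33) from 0 to 48 hpi and 0.76 (0.56 to 0.98) from 12 to 48 hpi. H3K4Me1 in this window was already 129 tags at 0 hpi and then 95, 223, 230 and 205, while H3K27Me3 was at most 19 tags. In contrast, the window over exons at 7.5 kb (chr4:114735031-114738030), the most acetylated of the locus at 0 hpi, went from 231 tags through 206, 136 and 78 to 109, a log2 change of -1.05 (-1.43 to -0.75). From 12 hpi it was -0.31 (-0.70 to 0.05), so this call rests on the 0 hpi library. The highest window of the locus was at 7.5 kb at 0 hpi and at 19.5 kb at 48 hpi.

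The largest relative gain from 0 hpi was upstream, inside the neighbouring gene Stil. At -22.5 kb (chr4:114705031-114708030) H3K27Ac was 12, 33, 61, 117 and 107 tags, and H3K4Me1 was 14, 30, 78, 98 and 95 tags. Both marks were near the genome mean at 0 hpi, H3K4Me1 was enriched from 3 hpi on and H3K27Ac from 12 hpi on. The H3K27Ac change was 2.72 (2.29 to 4.15) from 0 hpi and 0.76 (0.34 to 1.29) from 12 hpi, and Tal1 and Stil cannot be told apart as the gene this window belongs to. In all, 13 of the 26 windows of the Tal1 locus had at least 2-fold more H3K27Ac at 48 than at 0 hpi with at least 20 tags, and 1 had less. Enriched windows numbered 5 at 0 hpi and 8 at 48 hpi, so part of the 13 stayed below the limit of 34 tags. Some of the 13 lay within the neighbouring genes Stil and Pdzk1ip1. From 12 hpi, 4 had more, at 16.5, 34.5, 40.5 and 46.5 kb, and none less. Of these 4, those at 34.5 kb (9 to 23 tags, within Pdzk1ip1) and 46.5 kb (13 to 31 tags) stayed below the limit. The largest of these gains was at 16.5 kb, from 28 to 76 tags or 1.30 (0.80 to 2.12). Over the locus, from 30 kb before to 30 kb behind the gene, H3K27Ac went from 752 to 1534 tags, a log2 change of 1.02 (0.90 to 1.16), or 0.41 (0.30 to 0.52) from 12 hpi.

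The most acetylated 300 bases of the window at 19.5 kb (chr4:114748021-114748320, plus strand) are shown as the strongest H3K27Ac at 48 hpi in the locus. They held 2 GGAAG and 1 CACCC and none of the other 3 motifs. The whole 3 kb held 3 GATAA, 8 CAGNTG, 20 GGAAG, 12 CACCC and 3 TTNNGNAA, with no share for 3 kb windows computed. For comparison, the most acetylated 300 bases of each of 94295 enriched H3K27Ac windows of the genome held GATAA in 30.3%, CAGNTG in 56.3%, GGAAG in 68.6%, CACCC in 51% and TTNNGNAA in 45.4%. A match is a run of letters and does not show binding.
Tal1 19.5 kb: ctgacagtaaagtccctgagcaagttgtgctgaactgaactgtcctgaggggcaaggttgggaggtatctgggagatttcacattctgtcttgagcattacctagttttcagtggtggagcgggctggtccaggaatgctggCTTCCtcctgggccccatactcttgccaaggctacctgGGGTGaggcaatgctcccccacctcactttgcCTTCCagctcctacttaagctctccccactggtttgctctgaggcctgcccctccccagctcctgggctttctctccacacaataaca

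Lyl1 (ENSMUSG00000034041.4, chr8:87225356-87228614, plus strand), the close relative of Tal1, had the opposite course at its start. H3K27Ac was 1291, 961, 906, 965 and 527 tags. The 0 hpi level was 69.1-fold over the genome mean and above 99.8% of all starts, and at 48 hpi it was still above 95.8%. The log2 change was -1.28 (-1.44 to -1.15) from 0 hpi and -0.78 (-0.94 to -0.63) from 12 hpi. When libraries were scaled by the bins enriched at all 5 times, the change from 0 hpi was -0.87 and no longer 2-fold. H3K4Me1 was 70, 131, 94, 70 and 75 tags and H3K27Me3 11, 12, 6, 6 and 14 tags. The Lyl1 locus had no window enriched in H3K27Me3 at any time.

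H3K27Ac covered 14 kb around the Lyl1 start at 0 hpi and 13 kb at each later time, so the domain kept its length while its height was lower. The window over the gene (1.5 kb) had 1571, 1036, 1015, 1018 and 603 tags. The window before it (-1.5 kb, chr8:87222356-87225355) had 1029, 608, 603, 626 and 272, the largest loss of the locus, with a log2 change of -1.90 (-2.12 to -1.73), or -1.13 (-1.36 to -0.94) from 12 hpi. The window behind the gene at 4.5 kb had 813, 1116, 779, 806 and 476 tags and so had its highest level at 3 hpi. The opposite was seen at -22.5 kb, inside Nacc1 (chr8:87201356-87204355), where H3K27Ac was 19, 17, 25, 47 and 82 tags. That log2 change was 1.86 (1.38 to 2.91), or 1.54 (1.05 to 2.42) from 12 hpi. H3K4Me1 went with it, from 23 to 90 tags. Lyl1 lies in a dense stretch, with Trmt1 before it and a long annotated transcript of Nfix across it, and these tags cannot be assigned to one of them.

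The Lyl1 start (chr8:87225106-87225405, plus strand), the most acetylated of the 8, is shown next. It held 4 CACCC, 2 GGAAG and 1 CAGNTG and no GATAA or TTNNGNAA. Its ratio of observed to expected CpG was 0.261, lower than at most starts, and 29.1% of starts had a lower one.
Lyl1 start: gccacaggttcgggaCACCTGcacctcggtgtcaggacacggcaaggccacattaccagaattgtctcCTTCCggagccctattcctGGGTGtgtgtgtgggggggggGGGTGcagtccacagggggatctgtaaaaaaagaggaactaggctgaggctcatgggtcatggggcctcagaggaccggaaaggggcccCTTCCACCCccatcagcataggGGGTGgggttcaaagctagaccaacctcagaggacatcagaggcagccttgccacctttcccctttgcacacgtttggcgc

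Lmo2 (ENSMUSG00000032698.8, chr2:103798143-103822035, plus strand) has an upstream and a downstream start, and they differed. At the upstream start H3K27Ac was 9, 19, 20, 16 and 23 tags, never enriched, and its log2 change of 1.0 (0.19 to 2.65) lay exactly on the 2-fold limit. It was below the limit in 6 other settings of the processing and was 0.16 (-0.73 to 1.14) from 12 hpi. H3K4Me1 at this start was 18, 15, 41, 56 and 61 tags, enriched from 12 hpi on, with a log2 change of 1.52 (0.98 to 2.61), more than at 98.2% of all starts. H3K27Me3 there was 67, 52, 87, 79 and 64 tags, enriched throughout. At the downstream start, 11.5 kb into the gene, H3K27Ac was 457, 527, 364, 399 and 282 tags. It was enriched at all 5 times, and the log2 change was -0.69 (-0.92 to -0.48), or -0.36 (-0.60 to -0.14) from 12 hpi. H3K4Me1 there stayed between 48 and 66 tags, and H3K27Me3 was at most 33 tags, below the limit. The annotation also has the gene 4931422A03Rik across the windows from 7.5 to 40.5 kb, this start included. Tags there cannot be assigned to one of the 2 genes.

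Upstream of Lmo2 lay a row of acetylated windows without another annotated gene. At -22.5 kb (chr2:103774143-103777142) H3K27Ac was 475, 342, 323, 235 and 166 tags, lower at each time than at the one before, with a log2 change of -1.49 (-1.78 to -1.26), or -0.94 (-1.24 to -0.69) from 12 hpi. At -13.5 kb it was 398, 338, 354, 381 and 224 tags, a change of -0.65 (-0.91 to -0.41) from 12 hpi, and at -28.5 kb, at the far end of the row, it was 110, 66, 85, 103 and 152 tags, 0.80 (0.45 to 1.24) from 12 hpi. At -10.5 kb the marks parted: H3K4Me1 was 126, 158, 271, 255 and 272 tags, while H3K27Ac was 133, 157, 171, 150 and 66, a log2 change of -1.31 (-1.81 to -0.96) from 12 hpi.

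The largest loss was in an intron at 4.5 kb (chr2:103801143-103804142). H3K27Ac there was 148, 79, 62, 39 and 22 tags, so it had left the enriched range by 48 hpi. The log2 change was -2.50 (-3.47 to -2.10), or -1.31 (-2.27 to -0.77) from 12 hpi. H3K4Me1 in the same window was 170, 198, 151, 124 and 100 tags and remained enriched at all 5 times. Over the locus H3K27Ac went from 2275 to 1401 tags, a log2 change of -0.70 (-0.80 to -0.60), or -0.45 (-0.55 to -0.35) from 12 hpi. H3K27Me3 lay on either side of the gene body, over the upstream start and again in most windows from 31.5 to 49.5 kb, as the plot of H3K27Me3 shows. The latter windows overlap 4931422A03Rik at least as far as 40.5 kb.

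The most acetylated 300 bases of this intronic window (chr2:103802363-103802662, plus strand) are shown as the window with the largest loss. They held 4 GGAAG and none of the other 4 motifs. The whole 3 kb held 7 GATAA, 3 CAGNTG, 10 GGAAG, 9 CACCC and 6 TTNNGNAA, with no share for 3 kb windows computed.
Lmo2 4.5 kb: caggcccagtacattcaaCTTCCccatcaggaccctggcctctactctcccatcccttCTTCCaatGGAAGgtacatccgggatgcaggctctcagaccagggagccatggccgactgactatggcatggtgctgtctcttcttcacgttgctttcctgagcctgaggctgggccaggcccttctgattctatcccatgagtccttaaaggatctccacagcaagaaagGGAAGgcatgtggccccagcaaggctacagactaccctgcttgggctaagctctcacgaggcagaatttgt

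**Figure D3:**
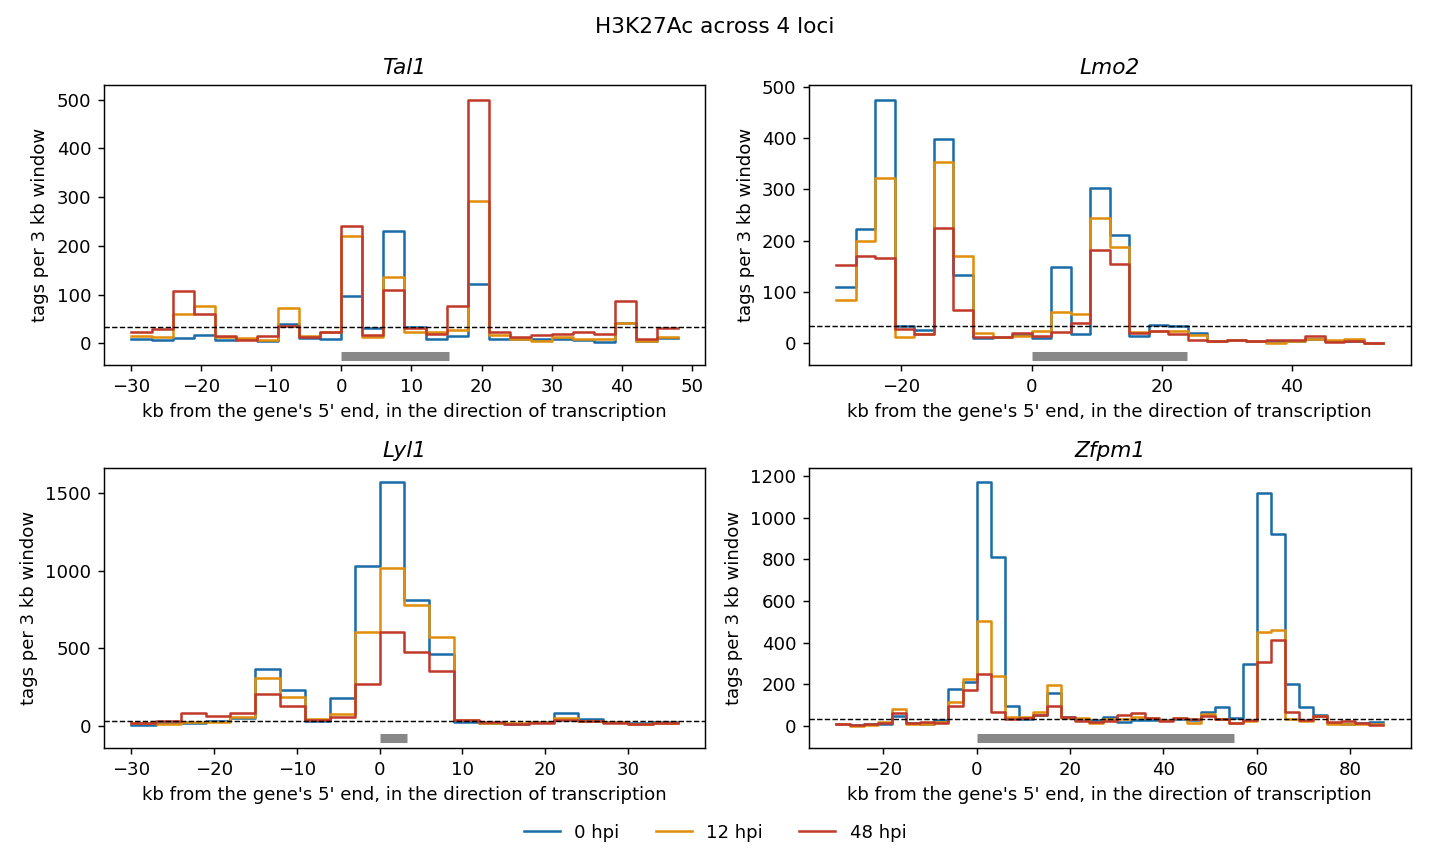
H3K27Ac tags per 3 kb window (vertical axis) by distance in kb from the 5′ end in the direction of transcription, at 0, 12 and 48 hpi, with the gene as a grey bar and the limit for enrichment dashed. At Tal1 the window at 19.5 kb is the highest at 48 hpi with 500 tags, and at Lyl1, Zfpm1 and Lmo2 the highest windows are lower at 48 than at 0 hpi.

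Zfpm1 (ENSMUSG00000049577.7, chr8:124806039-124861146, plus strand), the GATA cofactor, had the largest loss of H3K27Ac among the 8 loci from 0 to 48 hpi but not from 12 to 48 hpi. At its start H3K27Ac was 654, 495, 405, 455 and 265 tags. The start was above 95.4% of all starts at 0 hpi and above 79.6% at 48 hpi, with a log2 change of -1.29 (-1.51 to -1.10), or -0.60 (-0.84 to -0.38) from 12 hpi. With bins enriched at all 5 times as the scale the change from 0 hpi was -0.88. H3K4Me1 was 48, 63, 52, 35 and 37 tags and H3K27Me3 was at most 14 tags at any time.

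The loss was steepest inside the gene. The window at 1.5 kb (chr8:124806039-124809038) had 1171, 942, 502, 497 and 248 tags, a log2 change of -2.22 (-2.44 to -2.04), or -1.0 (-1.24 to -0.80) from 12 hpi. The next window, in an intron at 4.5 kb (chr8:124809039-124812038), had 813, 444, 238, 126 and 68. It was lower at every time than at the one before, and its change of -3.49 (-3.96 to -3.22), or -1.73 (-2.22 to -1.41) from 12 hpi, was the largest loss of the 256 windows over the 8 loci against either time. H3K4Me1 in that window was 254, 249, 251, 163 and 135 tags, a log2 change of -0.89, and enriched throughout. Further on, in the intronic window at 16.5 kb, H3K27Ac was 157, 132, 195, 117 and 98 tags beside 265, 220, 265, 193 and 166 of H3K4Me1, and at 31.5 kb it was 17, 27, 35, 49 and 52 tags, the locus' only gain of at least 2-fold from 0 hpi. From 12 hpi its log2 change was 0.51 (-0.07 to 1.23), and the one at 46.5 kb, with 14 tags at 12 and 35 at 48 hpi, was the only one called higher.

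A group of acetylated windows lay behind Zfpm1. At 61.5 kb H3K27Ac was 1117, 311, 452, 489 and 308 tags and at 64.5 kb (chr8:124869039-124872038) 924, 401, 462, 541 and 413, the latter being the highest of the locus at 48 hpi. At 58.5 kb it was 297, 36, 24, 34 and 28 tags. From 12 hpi the changes at 61.5 and 58.5 kb were -0.55 (-0.77 to -0.34) and 0.19 (-0.62 to 1.07). Unlike the window at 4.5 kb, these windows had most of their difference between 0 and 3 hpi, and at 64.5 kb the change was -1.15 (-1.33 to -0.99) from 0 hpi and -0.16 (-0.36 to 0.03) from 12 hpi. Over the locus H3K27Ac was 6072, 3224, 3079, 2917 and 2358 tags, a log2 change of -1.36 (-1.43 to -1.30), below which 2.52% of all protein-coding loci lay. From 12 hpi it was -0.38 (-0.46 to -0.31), less than at the loci of Lyl1 (-0.60), Meis1 (-0.46) and Lmo2 (-0.45). Of these, the Meis1 locus had no enriched H3K27Ac window and was at 0.237 and 0.171 of the genome mean at 12 and 48 hpi. H3K4Me1 over the locus had a log2 change of -0.73, or of -0.18 when scaled by background bins. The annotation also has Gm20388, a long transcript across the whole of this locus.

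The Zfpm1 start (chr8:124805789-124806088, plus strand) and the most acetylated 300 bases of its window at 4.5 kb (chr8:124809229-124809528) are shown because the window at 4.5 kb had the largest loss of H3K27Ac. The start held no GATAA, 1 CAGNTG, 3 GGAAG and 3 CACCC, and its observed to expected CpG ratio of 0.952 was above that of 88.9% of starts. The stretch of the window at 4.5 kb held 1 CAGNTG, 1 GGAAG and 1 CACCC.
Zfpm1 start: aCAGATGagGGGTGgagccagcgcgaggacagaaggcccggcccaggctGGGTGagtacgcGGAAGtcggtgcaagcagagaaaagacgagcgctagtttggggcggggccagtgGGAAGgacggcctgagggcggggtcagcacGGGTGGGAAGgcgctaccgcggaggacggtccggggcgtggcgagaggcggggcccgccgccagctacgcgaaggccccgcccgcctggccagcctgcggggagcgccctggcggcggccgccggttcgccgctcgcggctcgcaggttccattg
Zfpm1 4.5 kb: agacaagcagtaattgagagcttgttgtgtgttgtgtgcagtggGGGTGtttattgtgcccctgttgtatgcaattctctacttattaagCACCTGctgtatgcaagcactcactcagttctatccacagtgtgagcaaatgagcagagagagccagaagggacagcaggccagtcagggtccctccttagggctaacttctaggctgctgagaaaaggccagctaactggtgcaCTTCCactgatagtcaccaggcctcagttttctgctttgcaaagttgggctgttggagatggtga

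Klf1 (ENSMUSG00000054191.7, chr8:87425827-87429194, plus strand) had the steadiest H3K27Ac of the enriched starts, with 103, 100, 99, 72 and 88 tags. The log2 change was -0.22 (-0.65 to 0.20) from 0 hpi and -0.16 (-0.60 to 0.26) from 12 hpi, and it turned to 0.20 with the scaling by enriched bins. H3K4Me1 was 35, 48, 62, 45 and 28 tags and H3K27Me3 68, 54, 69, 72 and 77 tags. The window of the gene itself (1.5 kb) had 137, 119, 141, 110 and 140 tags of H3K27Ac. The window before it (-1.5 kb) had 58, 49, 60, 68 and 62 tags of H3K27Me3. The H3K27Me3 domain ended before the H3K27Ac domain at 0, 3 and 24 hpi and covered it at 12 and 48 hpi. The highest H3K27Ac of the locus, 396, 355, 250, 326 and 302 tags at 7.5 kb, was at the start of Dnase2a, a nuclease gene. Its log2 change was -0.39 (-0.61 to -0.17) from 0 hpi and 0.27 (0.03 to 0.52) from 12 hpi. Further on, at 19.5 kb within Dnase2a and Mast1, H3K4Me1 was 15, 18, 8, 27 and 86 tags and H3K27Ac 10, 9, 5, 13 and 30, a log2 change of 1.22 (0.51 to 2.78) from 0 hpi and 1.81 (1.2 to 4.31) from 12 hpi.

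Gata1 (ENSMUSG00000031162.8, chrX:7536386-7555197, minus strand) had next to no active marks at its upstream start. H3K27Ac was 1, 4, 3, 1 and 2 tags and H3K4Me1 0, 5, 4, 1 and 3 tags, where the 95% interval of a count of 0 reaches 3.69. H3K27Me3 in the 5 kb around it was 44, 32, 70, 57 and 48 tags, past the limit at 12 and 24 hpi. A domain of 10 or 15 kb was called at this start at 0, 12, 24 and 48 hpi, and 5, 0, 4, 5 and 5 of the 27 windows of the locus were enriched in H3K27Me3. At a second start, 10.2 kb into the gene, H3K27Ac was 4, 5, 6, 2 and 3 tags and H3K4Me1 24, 19, 19, 19 and 20. At the third, 13.9 kb in, H3K4Me1 was 59, 42, 53, 54 and 45 tags, enriched at all 5 times, and H3K27Ac 25, 10, 15, 10 and 23, never enriched. By the tags in 3 kb, H3K4Me1 at Gata1 was thus enriched at the third start and at neither of the others. A domain of 1 kb was called at the second start at 12, 24 and 48 hpi. At the third start the log2 change of H3K4Me1 was -0.36 (-0.98 to 0.19) and turned to 0.20 with the scaling by background bins.

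The locus of Gata1 had a late gain 22.5 kb before the gene, in a window without an annotated protein-coding gene (chrX:7576198-7579197). H3K27Ac there was 5, 8, 7, 4 and 29 tags and H3K4Me1 12, 15, 13, 17 and 41, so both marks were higher at 48 hpi than at the 4 earlier times. The H3K27Ac change was 1.77 (1.15 to 4.26) from 0 hpi and 1.5 (0.83 to 3.49) from 12 hpi, but the 48 hpi level stayed below the limit of 34 tags. The acetylated windows of the locus, with up to 49 tags, were at and beside the start of Hdac6 behind Gata1 and within Glod5 before it. How many copies of the X chromosome the cells carry is not given in the sources used here.

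Gata2 (ENSMUSG00000015053.8, chr6:88143885-88157024, plus strand) was the member under the widest H3K27Me3. Its start had 4, 8, 5, 4 and 2 tags of H3K27Ac, 4, 6, 1, 1 and 2 of H3K4Me1 and 36, 35, 38, 31 and 51 of H3K27Me3. Across its 25 windows none was enriched in H3K27Ac or H3K4Me1 at any time. H3K27Me3 was enriched in 13, 12, 11, 14 and 21 of them, in the order of the times.

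H3K27Me3 over the Gata2 locus was 931, 847, 887, 947 and 1246 tags, highest at 48 hpi. The log2 change of 0.42 (0.30 to 0.54) was larger than at 96.3% of loci and was 0.57 and 0.25 with the scaling by background bins and by bins enriched at all times. At a second start 4.77 kb into the gene H3K27Me3 was 37, 37, 34, 42 and 75 tags, a log2 change of 0.93 (0.43 to 1.63), larger than at 99.0% of starts. The H3K27Me3 domain at Gata2 was 80 kb long from 0 to 24 hpi (chr6:88060001-88140000) and 140 kb at 48 hpi (chr6:88060001-88200000). A separate domain within the gene was called at 0 hpi (chr6:88150001-88160000) and at 24 hpi (chr6:88150001-88165000). At 48 hpi the long domain ran across the start and the whole gene and took in this stretch. Within the gene, at 13.5 kb (chr6:88155885-88158884, the end of the gene), H3K27Ac was 9, 7, 8, 5 and 26 tags, a log2 change of 1.15 (0.39 to 2.81), or 1.25 (0.51 to 3.05) from 12 hpi, while H3K27Me3 in the same window was 54, 51, 42, 52 and 76. The start sequence of Gata2 was rich in CpG, with an observed to expected ratio of 0.9 that exceeded 83.9% of starts, and held none of the 5 motifs.

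**Figure D4:**
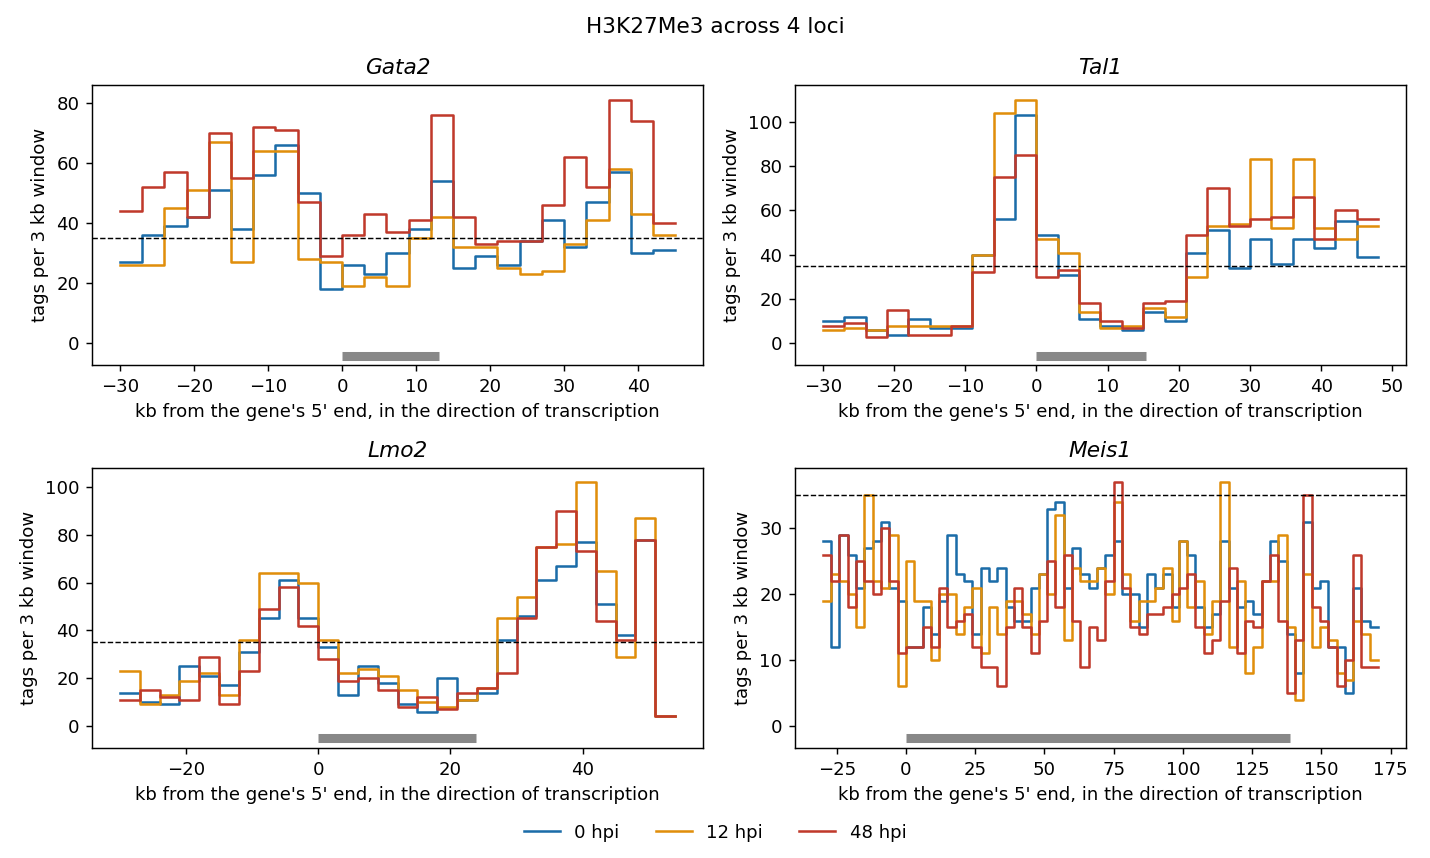
H3K27Me3 tags per 3 kb window (vertical axis) by distance in kb from the 5′ end in the direction of transcription, at 0, 12 and 48 hpi, with the gene as a grey bar and the limit for enrichment (35 tags per 3 kb) dashed. Gata2 is highest at 48 hpi across most of its windows, Tal1 and Lmo2 have a peak before the 5′ end and a broad stretch behind the gene, and Meis1 stays near or below the limit.

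Meis1 (ENSMUSG00000020160.10, chr11:18780433-18918961, minus strand) carried little of any of the 3 marks. Its start had 2, 1, 1, 0 and 1 tags of H3K27Ac, 1, 6, 5, 3 and 3 of H3K4Me1 and 29, 31, 25, 22 and 22 of H3K27Me3. None of its 67 windows was enriched in H3K27Ac at any time, with at most 12 tags. H3K27Me3 was enriched in none of them at 0 hpi and in 2 at 48 hpi, with a median of 21, 18, 19, 19 and 16 tags, close to the genome mean of 18.8 per 3 kb. The window at 94.5 kb, the highest in H3K4Me1 at 48 hpi, held 26, 11, 27, 44 and 54 tags of it. Gata2 and Meis1 thus both lacked active marks at their starts, and at 48 hpi H3K27Me3 was enriched at the start of Gata2 and not at that of Meis1.

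**Figure D5:**
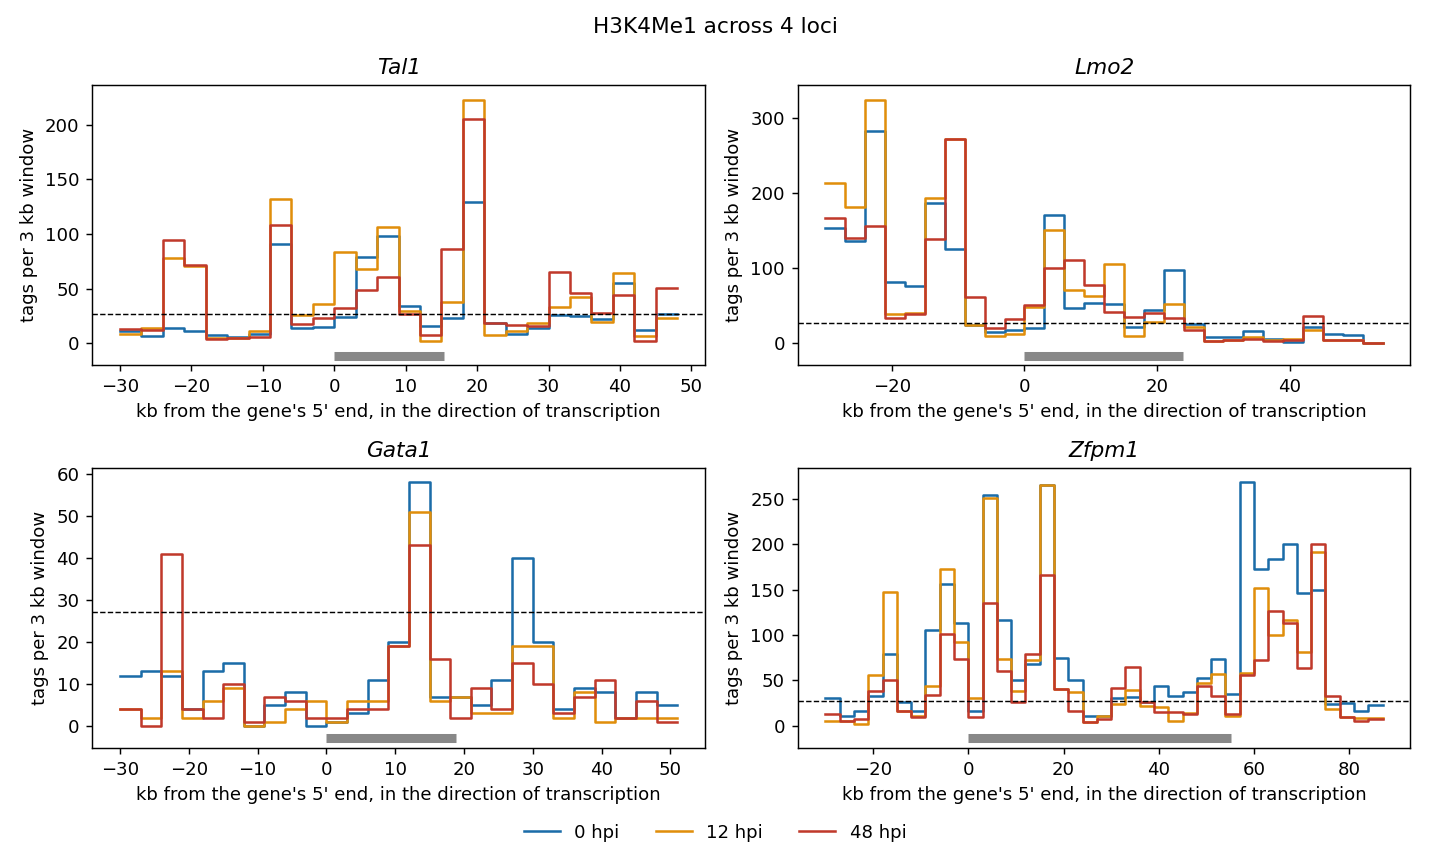
H3K4Me1 tags per 3 kb window (vertical axis) by distance in kb from the 5′ end in the direction of transcription, at 0, 12 and 48 hpi, with the gene as a grey bar and the limit for enrichment dashed. At Tal1 the window at 19.5 kb goes from 129 to 205 tags and that at -22.5 kb from 14 to 95, at Lmo2 the window at -10.5 kb goes from 126 to 272, and at Gata1 the highest window is at 13.5 kb.

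The order of the starts by H3K27Ac was Lyl1, Zfpm1, Klf1, Tal1, Lmo2, Gata2, Meis1 and Gata1 at 0 hpi. Klf1 and Tal1 did not differ beyond counting error, nor did neighbours among the last 4. At 48 hpi it was Lyl1, Zfpm1, Tal1, Klf1 and Lmo2, followed by Gata2, Gata1 and Meis1 at 2, 2 and 1 tags. Zfpm1 and Tal1, with 265 and 255 tags, did not differ beyond counting error there. In H3K27Me3 Tal1 was first at 0 and 48 hpi and Zfpm1 and Lyl1 were last, and only the steps after Tal1, from Lmo2 to Gata1 and from Meis1 to Zfpm1 exceeded counting error at 0 hpi.

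Over the 256 windows of the 8 loci, the enriched share was above that of all windows of the genome in each mark. These 256 lie in or near genes, while those of the genome include windows far from any gene. No share over the loci of all genes was computed. The shares below, also those of higher and lower windows, therefore cannot be read as a trait of these 8 genes. For H3K27Ac it was 20.3% (52 windows) at 0 hpi and 19.9% (51) at 48 hpi, beside 6.32% and 9.28% of the 831384 windows of the genome. For H3K4Me1 it was 27.7% and 30.9%, beside 10.3% and 12.2%, and for H3K27Me3 20.3% and 23.8%, beside 13.1% and 14.7%. Windows at least 2-fold higher in H3K27Ac at 48 hpi, with at least 20 tags, numbered 20 (7.81%, beside 5.49% of the genome), of which 13 were at Tal1. Those lower also numbered 20 (7.81%, beside 2.37%), of which 10 were at Zfpm1 and 4 at Lyl1. From 12 hpi there were 11 higher (4.3%, beside 2.73%) and 5 lower (1.95%, beside 0.905%). Windows of a locus are neighbours and not independent.

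The partners of these proteins were mostly acetylated at their starts, 12 of 14 at 0 and at 48 hpi beside 46.5% and 47.2% of all starts. Of the 14, 5 were at least 2-fold lower at 48 hpi (9.38% of all starts) and none higher (5.26%), with a median log2 change of -0.63 beside -0.15 over all starts. Tcf3, the E protein E2A, was 1147, 782, 613, 667 and 491 tags, and Tcf4, another E protein, 368, 454, 218, 232 and 158. Runx1, a core blood cell regulator, was 924, 890, 807, 706 and 253 tags, a log2 change of -1.85, and Cbfa2t3 (ETO2), a corepressor of the complex, 837, 441, 338, 286 and 153, a change of -2.41. Ssbp3, which stabilises the bridging protein Ldb1, had a log2 change of -1.49. From 12 hpi, 2 of the 14 were lower (4.61% of all starts), Runx1 by a log2 change of -1.65 and Cbfa2t3 by -1.12, while Tcf3 (-0.32), Tcf4 (-0.45) and Ssbp3 (-0.64) were within 2-fold.

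Genes that the complex is known to drive in red cells stayed mostly without H3K27Ac. Of 21 such genes 20 were matched, and 2 of these were enriched at 0 hpi and 3 at 48 hpi, beside 46.5% and 47.2% of all starts. At 48 hpi 1 was higher and 2 lower, with a median log2 change of 0.00, beside 5.26% of all starts higher and 9.38% lower, as for the lists that follow. One of the lower was Ank1, with 5 tags at 0 hpi and 0 at 48 hpi and an interval that includes no change. The others were Tfrc, the transferrin receptor, at 807, 721, 441, 481 and 351 tags and Gypc, a membrane glycophorin, at 13, 10, 25, 20 and 42. Among 15 megakaryocyte and mast cell genes 3 were higher and 2 lower, with a median of 0.10. Of these, Itga2b (higher, 3 to 15 tags) and Vwf (lower, 8 to 1 tags) were enriched neither at 0 nor at 48 hpi. Hdc, which makes histamine, was 10, 17, 68, 61 and 91 tags, a log2 change of 2.68, Gp1ba, a platelet receptor, went from 10 to 45 tags, and Pf4, a platelet chemokine, was 200, 76, 48, 26 and 50, a change of -1.90. Of 17 stem cell genes 16 were matched, 2 being higher and 1 lower, with a median of 0.12. The 2 higher, Procr and Flt3, each had 31 tags at 48 hpi, below the limit of 34. Myb, a progenitor regulator, was 765, 987, 459, 279 and 99 tags, a change of -2.89, and Procr, a stem cell surface receptor, was 3, 12, 8, 10 and 31. From 12 hpi Ppbp, a platelet chemokine (6 to 20 tags), and Procr (8 to 31) were among the genes called higher, and Myb, with a change of -2.16, was called lower, beside 2.35% and 4.61% of all starts. Tfrc (-0.33), Gypc (0.65), Hdc (0.40), Gp1ba (0.74) and Pf4 (0.05) were then within 2-fold.

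The starts most like each member were sought over the 15 values (3 marks at 5 times, log2 of tags plus 5, Euclidean distance). Nearest to Lyl1 was Gna15 (0.894), to Zfpm1 Rtn3 (0.823), to Klf1 Dip2a (0.732) and to Lmo2 Lyve1 (1.17). Tal1 had the most distant nearest neighbour, Sntb2 (1.29). Of the starts without active marks, Gata2 was nearest to Olfr917 (0.686), Meis1 to Rgma (0.839) and Gata1 to Tmprss11d (0.949). No member was among the 3 nearest starts of another member.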

How the data were processed

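The deposited tables list positions of uniquely aligned 36 bp tags (unit: tag positions on mm9, with no strand and no count or normalization); the authors aligned reads with Eland or Bowtie to mm9, and Bowtie's version is not given in the sources used here. The labels of the 15 libraries gave their mark and time, with 1 library in each group. Lines without a position, chromosome Y and unplaced sequences were left out. For each library 1 tag per position was kept, counted at its midpoint, and libraries were thinned at random to 10.91 M (H3K4Me1), 15.22 M (H3K27Ac) and 15.34 M (H3K27Me3) tags. Gene models came from GENCODE vM1 on NCBIM37. None of 259404327 distinct tags fell in the 82908 bins of 1 kb that hold no known base of this genome. Loci were tiled in 3 kb windows from 30 kb before to 30 kb behind each gene, and counts of higher or lower windows needed 20 tags at one of the times. Windows named in the text are, per locus, those with the highest H3K27Ac at 0 and 48 hpi and its largest gain and loss, plus windows at or beside a start or showing another mark, which were chosen after their values were seen. The members and the gene lists were chosen with earlier results of these data known. In the lists, Ahsp and Gfi1 were not matched. Fold changes, intervals and calls were computed in Python 3.11.15 with numpy 2.4.6, scipy 1.17.1 and pandas 2.3.3, the scripts were tested on simulated data, and figures were drawn with matplotlib 3.10.9. Alternatives covered scaling, thinning, repeated tags, window width and grid, the start used, added tags, thresholds and flanks.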

Additional observations from a re-analysis of the deposited data

How the results depend on the processing

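With 1 library per mark and time, differences between times cannot be separated from differences between libraries, and an interval covers counting error only. No paired analysis was possible because no mark has more than 1 library at a time, and no replicate could be left out. Of 692 recomputed values in 14 settings, 574 stayed within counting error of the reported value or, for counts, within 1.5 times of it, 116 moved and 2 reversed. A value counted as reversed only where the reported change was at least 2-fold and the recomputed one had the other sign. Both reversals were at Lmo2, where the start of the longest coding transcript gave log2 changes of -0.48 for H3K4Me1 and -0.66 for H3K27Ac. Smaller changes that turned sign counted as unchanged or moved. With background bins, for example, H3K4Me1 over the Lyl1 locus went from -0.17 to 0.38 and over the Klf1 locus from -0.14 to 0.41. Changes at the members' starts held in 187 of 200 values, enriched windows in 202 of 216 and locus changes in 110 of 152. At Gata1, Gata2 and Meis1 the intervals of H3K4Me1 and H3K27Ac were wide, as for Meis1 in H3K27Ac (-6.88 to 3.26). Values there could hardly leave the interval, so that they held says little.

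For H3K27Ac the members at least 2-fold higher, 2 as reported, numbered 0 at a 3-fold threshold and 1 with all distinct positions, background bins, tags as deposited, a second thinning seed, a window of double width or the longest coding transcript. Those lower, also 2, numbered 0 at a 3-fold threshold and with scaling by bins enriched at all 5 times. The comparison of 48 with 12 hpi, chosen after seeing the data, gave 0 members in either direction, and 2.35% of all starts higher and 4.61% lower. For H3K4Me1 the members higher, 1 as reported, numbered 2 at a 1.5-fold threshold or with background bins, 3 with 1 tag added and 0 at a 3-fold threshold or with the longest coding transcript, and those lower, 0 as reported, numbered 1 with a window of double width. The counts for H3K27Me3 were 0 under each alternative run.

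The shares of all starts moved with the threshold, the scaling and the added tags. At 1.5-fold the shares higher and lower were 6.46% and 28.7% for H3K4Me1, 11.6% and 23.2% for H3K27Ac and 6.66% and 8.71% for H3K27Me3. At 3-fold they were 1.64% and 1.12%, 2.32% and 2.91%, and 0.0315% and 0.054%. With 1 tag added they were 6.08% and 24.9%, 10.9% and 18.7%, and 2.63% and 4.6%. Scaling by background bins gave 8.65% and 1.17% for H3K4Me1 and 1.55% and 0.613% for H3K27Me3, and scaling by bins enriched at all times gave 10.7% and 4.04% for H3K27Ac and 0.311% and 2.94% for H3K27Me3. For H3K27Me3, all distinct positions gave 0.293% and 0.932% and the wider window 0.315% and 0.595%. The cause was not tested, beyond what each setting does by construction. At starts with fewer than about 5 tags, as at Gata1, Gata2 and Meis1 in H3K27Ac, a loss was not detectable at this depth.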
